A study of Danio rerio with 6 samples.

Results

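Genes of synaptic vesicle release and neurotransmission were followed in RNA from zebrafish at 5 days after fertilization. They were taken from a list of 48 gene names chosen for their function, with earlier results of these data known. A row with the same name was found for 47 of them, out of 32053 rows in each deposited table, and gabrb2a was not analysed here. All 47 members were among the 23167 rows that passed the filter on low counts. The name cplx2 stood on 2 rows, of which the row with the higher total was used.

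The exposed group held 3 libraries from embryos kept in 2 mg/L of BP-3. This abbreviation usually stands for benzophenone-3, an ultraviolet filter of sunscreens, though the labels give no full name. The control group held 3 libraries from embryos labelled control, of the same age, whose titles call them WT; no mutant or transgene is named for either group. The treatment field of the exposed libraries counts up as BP-3, BP-4 and BP-5, but since titles and protocol give BP-3 for each, they form 1 group here. The tissue is labelled intestinal and was dissected with forceps; whether embryos were pooled, or replicates came from separate clutches, is not stated, so each p-value weighs differences only against the variation among these 6 libraries.

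A neuron releases transmitter when a vesicle fuses with its membrane. The vesicle protein synaptobrevin (vamp genes) zips together with syntaxin (stx1a) and Snap25, and synaptotagmin (syt genes) triggers fusion when calcium enters. Synthesis enzymes and vesicle loaders differ between transmitters, though some are shared, and receptors sit on the cells that receive the signal, while the fusion machinery is shared by most neurons. The gut wall has an enteric nervous system that uses the same machinery as the brain and spinal cord.

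Total counts lay between 23567603 and 41726516 per library, and the 47 members together took between 132435 and 213167 counts. Levels are given in CPM, counts scaled to a common library size with TMM factors. CPM is not corrected for gene length, so levels of different genes compare reads, not numbers of transcripts. Markers of the labelled tissue were present, with 8 of 8 intestinal genes tested. Their summed level ranged from 2342 to 2964 CPM in BP-3 and from 1657 to 2407 CPM in control. A single gene of this list ranged from 221 to 964 CPM over all libraries. RNA of other tissues was present too. All 12 markers of the central nervous system passed the filter on low counts. Of 15 retina names 14 had a row, and these all passed too. The summed level of the 14 retina markers ranged from 6304 to 6622 CPM in BP-3 and from 6216 to 6835 CPM in control. That of 7 skeletal muscle markers ranged from 27952 to 33274 CPM in BP-3 and from 27150 to 32658 CPM in control. Both sums were above the intestinal sum in every library, though the lists differ in size and genes. Which of these tissues gave the members' reads was not tested. In such bulk tissue, fewer neurons and less RNA per neuron cannot be told apart.

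Replicate 3 of each group stood apart from the others, in the members and over all rows. In units of counting noise, the mean squared difference over rows tested was 20.5 and 15.4 between BP-3 replicate 3 and replicates 1 and 2. It was 7.34 between BP-3 replicates 1 and 2. In control these values were 17.3, 17.3 and 5.33. Replicate 3 also had the lowest total count of each group, 24000785 in BP-3 and 23567603 in control. In BP-3 replicate 3, 31 of 47 members lay above the mean of their group, against 17 and 21 in BP-3 replicates 1 and 2. In control replicate 3 it was 30 of 47, against 18 and 19 in control replicates 1 and 2. No such counts were formed over all rows. Genes such as elavl3, cplx2 and slc6a5 were high in both replicate 3 libraries, and snap25b, vamp2 and sypb were low in both. Results are therefore given by library, and counts of calls also without these libraries.

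Most members had small negative fold changes after exposure, and few passed the test. By the quasi-likelihood test of edgeR, with p-values adjusted by Benjamini-Hochberg over all rows and a threshold of 0.05, 4 members fell, namely syt1a, gria1a, grin1a and grin1b, and 1 member rose, syt2a. The 4 that fell are 8.51% of the members tested, where 4.29% of all rows tested fell; the 1 that rose is 2.13%, where 6.26% of all rows rose. The median log2 fold change of the members was -0.12, against -0.001 for all rows, and 37 of 47 had a negative value, against 50.2% of rows. In 18 members the BP-3 libraries all lay below the control libraries (38.3%, against 14.9% of all rows), and in 3 they all lay above (6.38%, against 16.1% of all rows). The shares of all rows were not matched to the members for abundance, and the list was chosen with earlier results of these data known. Members that move together between libraries are not independent counts. An unadjusted p under 0.05 was found for 21 of 47 members and for 26.1% of all rows tested. For 46 of 47 members the fitted change was under 1.5-fold in either direction.

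**Figure D1:**
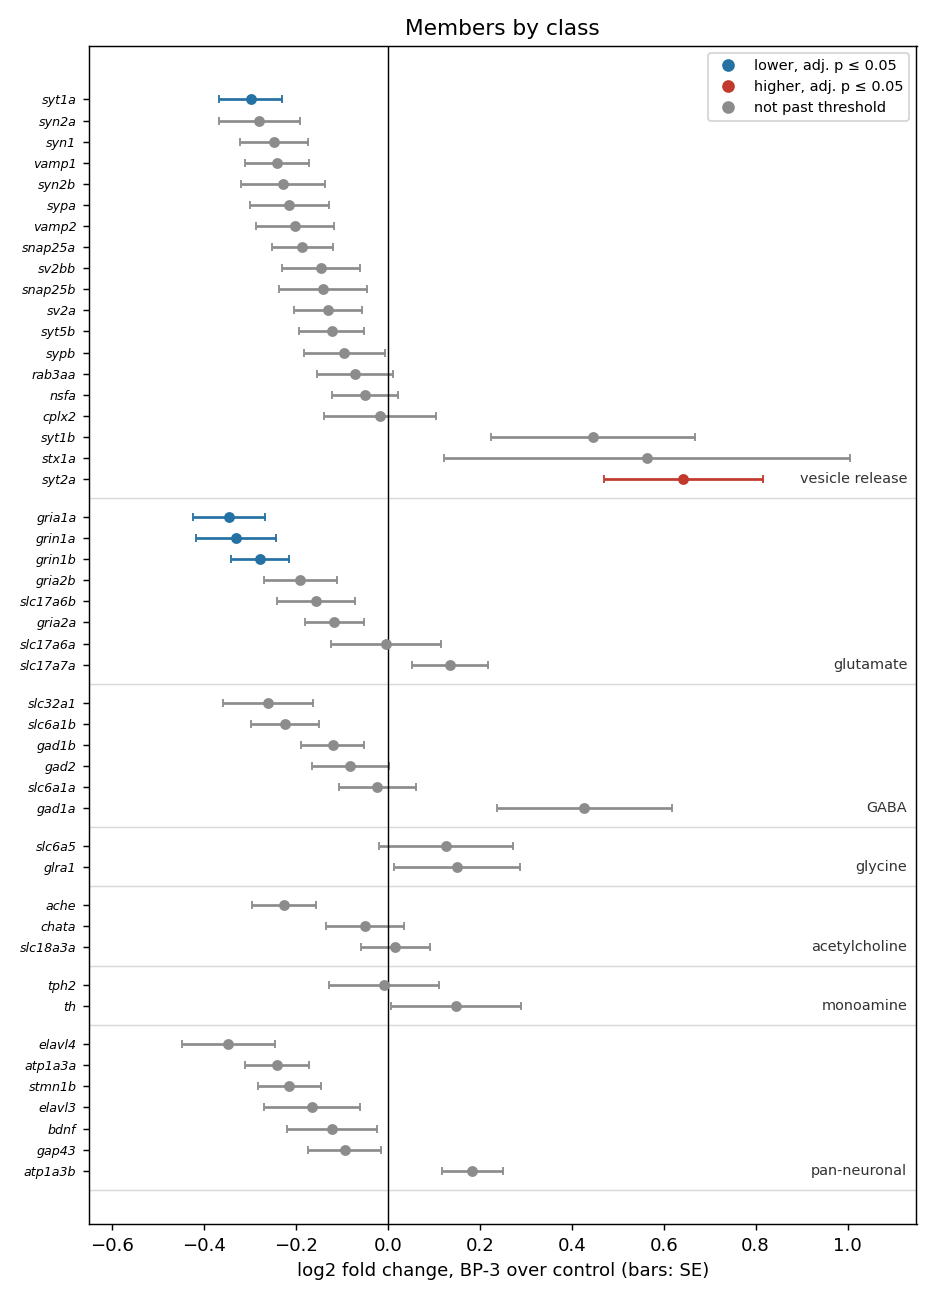
Log2 fold change of each of the 47 members, BP-3 over control, with bars for the SE derived from edgeR's fit (n = 3 libraries a group). Genes run down the page by class, and blue marks a fall and red a rise past an adjusted p of 0.05. 37 of 47 points lie left of 0, and the 5 coloured points are in the vesicle release and glutamate classes.

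Among the 19 vesicle release genes 1 fell and 1 rose, where 4.29% of all rows fell and 6.26% rose. The median log2 fold change of the 19 genes was -0.14. The summed level of the class was 1915, 1918 and 1954 CPM in BP-3 replicates 1 to 3, against 2166, 2164 and 2191 CPM in control replicates 1 to 3. These sums do not overlap, and the BP-3 mean was 88.8% of the control mean. The median and the sums are descriptions, with no test.

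The calcium sensor gene syt1a, whose protein triggers fast release, lay at 281, 297 and 312 CPM in BP-3, against 361, 365 and 369 CPM in control. All BP-3 libraries were below all control libraries, and the SD was 15.6 CPM over the BP-3 libraries, against 4.15 CPM over the control libraries (n = 3 each). The fall was 1.23-fold (log2 -0.30 ± 0.07 SE, edgeR adjusted p = 0.0219). The related sensor gene syt2a moved the other way, at 8.64, 8.05 and 11.4 CPM in BP-3, against 6.20, 4.79 and 6.94 CPM in control. It rose 1.56-fold (log2 0.64 ± 0.17 SE, edgeR adjusted p = 0.0423), with no overlap between groups, and BP-3 replicate 3 was its highest library. A further paralogue, syt1b, lay at 1.99, 1.63 and 2.16 CPM in BP-3, against 1.32, 1.47 and 1.45 CPM in control, without overlap but not past the threshold (edgeR adjusted p = 0.239).

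**Figure D2:**
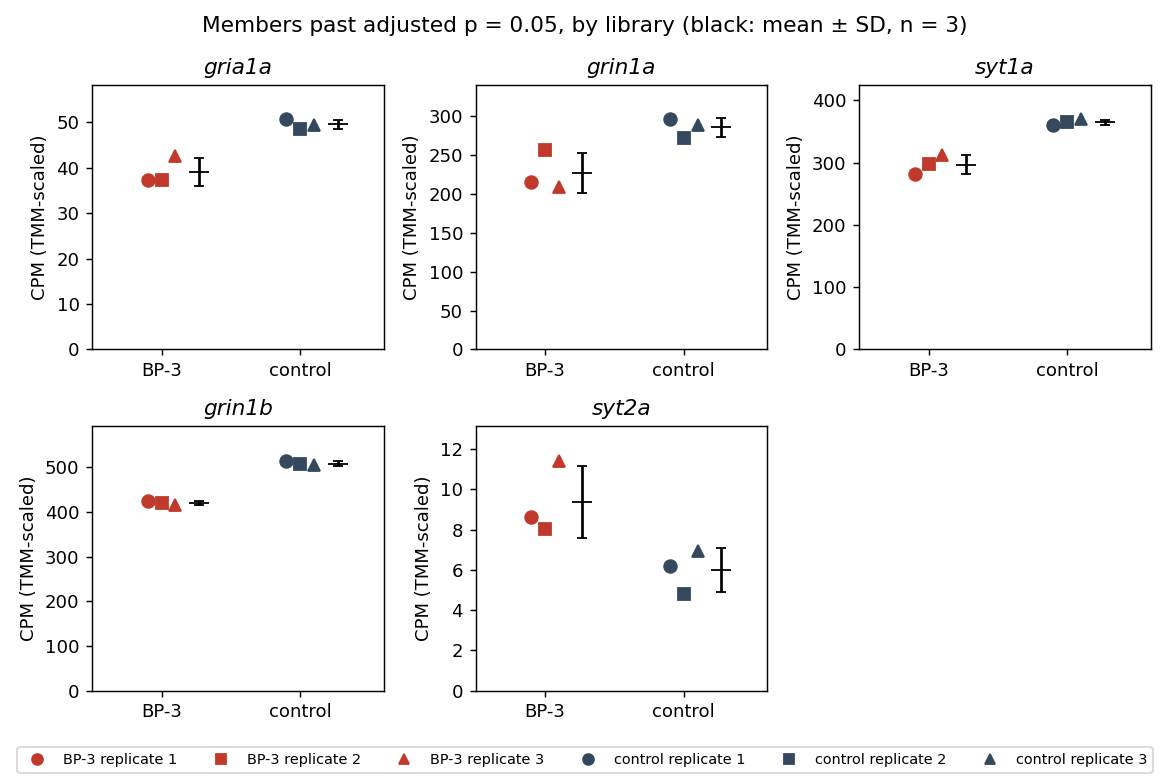
TMM-scaled CPM (y axis, from 0) of the 5 members past the threshold, BP-3 libraries left of control libraries; symbols mark replicates 1 to 3, and black bars show mean ± SD (n = 3). In gria1a, grin1a, syt1a and grin1b all BP-3 points lie below all control points, and in syt2a all lie above.

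The other 17 vesicle release genes did not pass the threshold. The nearest was vamp1, a synaptobrevin gene, at 72.1, 70.4 and 67.4 CPM in BP-3, against 78.6, 85.3 and 84.2 CPM in control, without overlap (edgeR adjusted p = 0.0535). Its relative vamp2 lay at 64.5, 62.4 and 57.1 CPM in BP-3, against 72.5, 75.3 and 63.8 CPM in control, where control replicate 3 falls within the BP-3 range. The synapsin genes tie vesicles to the cytoskeleton. Of these, syn1 lay at 40.0, 37.3 and 36.4 CPM in BP-3, against 43.4, 47.2 and 44.6 CPM in control (edgeR adjusted p = 0.0601), and syn2a had a log2 fold change of -0.28 ± 0.09 (SE, edgeR adjusted p = 0.0706). In syn1, syn2a and syn2b alike the groups did not overlap.

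The SNARE partner snap25a lay at 194, 182 and 180 CPM in BP-3, against 216, 212 and 205 CPM in control, also apart (edgeR adjusted p = 0.107). For snap25b the ranges overlapped, since control replicate 3 lay at 124 CPM against 121 to 139 CPM in the BP-3 libraries. The vesicle membrane gene sypa (synaptophysin) lay at 248, 247 and 271 CPM in BP-3, against 279, 278 and 332 CPM in control, without overlap (edgeR adjusted p = 0.147). Groups overlapped for sypb, the vesicle protein genes sv2a and sv2bb, the fusion clamp gene cplx2, the vesicle GTPase gene rab3aa, the SNARE recycling gene nsfa and the sensor gene syt5b, with log2 fold changes between -0.15 and -0.02. The syntaxin gene stx1a had only 7 to 47 counts per library, and its log2 fold change of 0.56 had a 95% interval from -0.42 to 1.55, with control libraries at 1.16, 0.595 and 0.289 CPM.

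Glutamate is the main excitatory transmitter of the vertebrate brain. Of its 8 genes 3 fell, each a receptor subunit, and 0 rose, where 4.29% of all rows fell and 6.26% rose. The median log2 fold change of the 8 genes was -0.17. Their summed level was 951, 985 and 953 CPM in BP-3, against 1156, 1119 and 1162 CPM in control, without overlap. The BP-3 mean was 84.1% of the control mean. Most of this sum is grin1a and grin1b, 2 of the genes that fell. Their means were 227 and 419 of 963 CPM in BP-3, and 285 and 508 of 1146 CPM in control.

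The gene grin1b, for the obligatory subunit of NMDA receptors, lay at 423, 420 and 415 CPM in BP-3, against 515, 506 and 504 CPM in control. The spread within a group was small, 4.30 CPM in BP-3, against 5.63 CPM in control (SD, n = 3), and the fall was 1.21-fold (log2 -0.28 ± 0.06 SE, edgeR adjusted p = 0.0212). Its paralogue grin1a lay at 216, 256 and 209 CPM in BP-3, against 296, 271 and 289 CPM in control. That is a fall of 1.26-fold with a wider spread (log2 -0.33 ± 0.09 SE, edgeR adjusted p = 0.0390).

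The AMPA receptor subunit gene gria1a lay at 37.2, 37.3 and 42.6 CPM in BP-3, against 50.6, 48.5 and 49.4 CPM in control. It fell 1.27-fold (log2 -0.35 ± 0.08 SE, edgeR adjusted p = 0.0203). The other AMPA receptor genes did not pass. In gria2a, with 90.5, 85.9 and 88.5 CPM in BP-3, against 96.6, 94.3 and 96.3 CPM in control, the groups did not overlap but the difference was small (log2 -0.12, 95% interval -0.26 to 0.03). In gria2b they overlapped, with BP-3 replicate 3 at 91.5 CPM and control replicate 1 at 90.4 CPM.

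The vesicular glutamate transporter genes, which mark the neurons that release glutamate, gave no call. For slc17a6b the values were 60.0, 62.1 and 64.4 CPM in BP-3, against 67.0, 63.5 and 77.3 CPM in control (log2 -0.16, 95% interval -0.35 to 0.03). For slc17a6a the log2 fold change was -0.004 (95% interval -0.27 to 0.26), and for slc17a7a it was 0.14 (95% interval -0.05 to 0.32). Of 5 receptor genes 3 passed, and of 3 transporter genes 0 did by edgeR, DESeq2 or limma; all 3 had an unadjusted p over 0.05, and the difference between receptor and transporter genes was not tested.

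**Figure D3:**
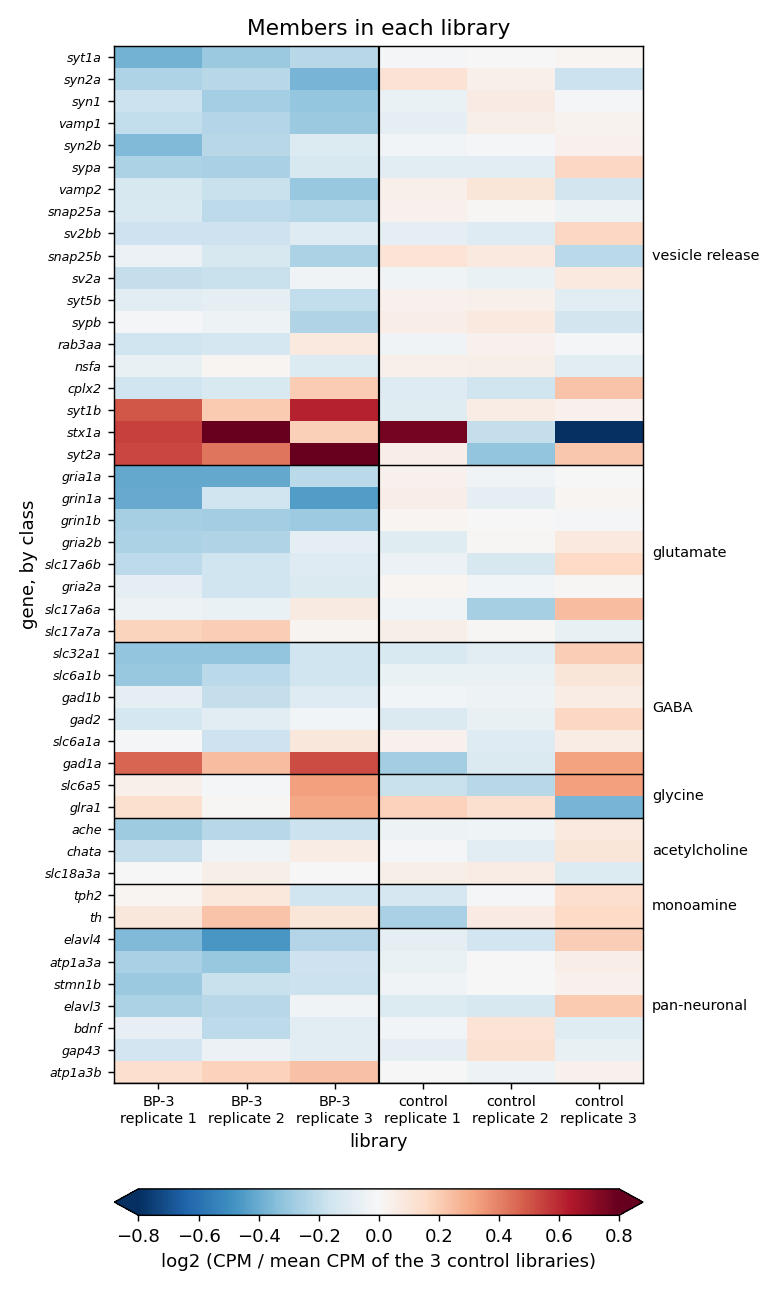
Log2 ratio of each member's CPM to its mean over the 3 control libraries, for 47 genes (rows, by class) in 6 libraries (columns, BP-3 left of control); blue is below and red above the control mean, and values past ±0.8 have the end colours. The BP-3 columns are mostly blue from syt1a to sv2a and in the glutamate receptor rows, while syt2a, syt1b and gad1a are red, and stx1a varies most between libraries.

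GABA is the main inhibitory transmitter. Of its 6 genes tested 0 passed the threshold by edgeR's test, DESeq2 or limma, while 3 had an unadjusted p under 0.05, against 26.1% of all rows. The summed level was 576, 567 and 608 CPM in BP-3, against 612, 609 and 686 CPM in control. These sums did not overlap, but the gap between BP-3 replicate 3 and control replicates 1 and 2 was small against the spread of 43.7 CPM in control (SD, n = 3).

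The vesicular transporter gene slc32a1, which loads GABA and glycine, lay at 33.1, 33.1 and 36.8 CPM in BP-3, against 37.8, 38.6 and 47.1 CPM in control (log2 -0.26, 95% interval -0.48 to -0.04, edgeR adjusted p = 0.123). The reuptake gene slc6a1b lay at 116, 123 and 128 CPM in BP-3, against 138, 138 and 153 CPM in control (edgeR adjusted p = 0.0846). Its paralogue slc6a1a had a log2 fold change of -0.02, with a 95% interval from -0.21 to 0.16. With both replicate 3 libraries left out slc6a1b passed as lower. A term that sets these libraries apart let slc6a1b and slc32a1 pass, both lower.

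The enzymes that make GABA from glutamate are encoded by gad1b, gad2 and gad1a. For gad2 the values were 170, 177 and 184 CPM in BP-3, against 173, 179 and 209 CPM in control, with overlap, and for gad1b 170, 156 and 166 CPM in BP-3, against 175, 173 and 186 CPM in control. The paralogue gad1a had few reads, at 4.25, 3.64 and 4.41 CPM in BP-3, against 2.53, 2.83 and 3.84 CPM in control, with control replicate 3 inside the BP-3 range (edgeR adjusted p = 0.188).

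Glycine is the inhibitory transmitter of the spinal cord and hindbrain, and its 2 genes differed from most members in having positive values, neither past the threshold by edgeR, DESeq2 or limma, and 0 of 2 with an unadjusted p under 0.05. The reuptake gene slc6a5 lay at 86.5, 83.1 and 106 CPM in BP-3, against 74.4, 72.3 and 106 CPM in control. Replicate 3 was high in both groups, and the 95% interval of the log2 fold change ran from -0.20 to 0.45. With both replicate 3 libraries left out it passed, at a log2 fold change of 0.21 (edgeR adjusted p = 0.0319). The receptor gene glra1 lay at 58.6, 54.0 and 66.5 CPM in BP-3, against 60.9, 58.6 and 41.4 CPM in control, where control replicate 3 was the lowest library. The log2 fold change was 0.15, and -0.003 without control replicate 3.

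Of the 3 cholinergic genes 0 passed by edgeR's test or limma, 1 passed by DESeq2, and 1 had an unadjusted p under 0.05, ache in each case. Of all rows 12.7% passed by DESeq2, and 26.1% had an unadjusted p under 0.05. The gene ache encodes acetylcholinesterase, which clears acetylcholine at synapses and is also made by muscle. Its level was 244, 255 and 264 CPM in BP-3, against 289, 290 and 314 CPM in control, without overlap (log2 -0.23 ± 0.07 SE, edgeR adjusted p = 0.0667). The genes that make and load the transmitter had overlapping groups. The synthesis gene chata lay at 48.7, 54.1 and 57.5 CPM in BP-3, against 54.6, 52.2 and 59.0 CPM in control (95% interval of the log2 fold change -0.24 to 0.14). The loader gene slc18a3a lay at 32.8, 33.9 and 32.9 CPM in BP-3, against 33.8, 34.2 and 30.4 CPM in control (95% interval -0.15 to 0.18).

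For the monoamines, th encodes the rate-limiting enzyme of dopamine and noradrenaline synthesis, and tph2 that of serotonin in neurons. Neither passed by edgeR's test, DESeq2 or limma, and 0 of 2 had an unadjusted p under 0.05. In th the values were 6.21, 6.85 and 6.24 CPM in BP-3, against 4.87, 6.12 and 6.52 CPM in control (95% interval of the log2 fold change -0.17 to 0.46). In tph2 they were 8.95, 9.37 and 7.92 CPM in BP-3, against 8.04, 8.78 and 9.70 CPM in control (95% interval -0.27 to 0.26). Both intervals allow changes of either sign.

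**Figure D4:**
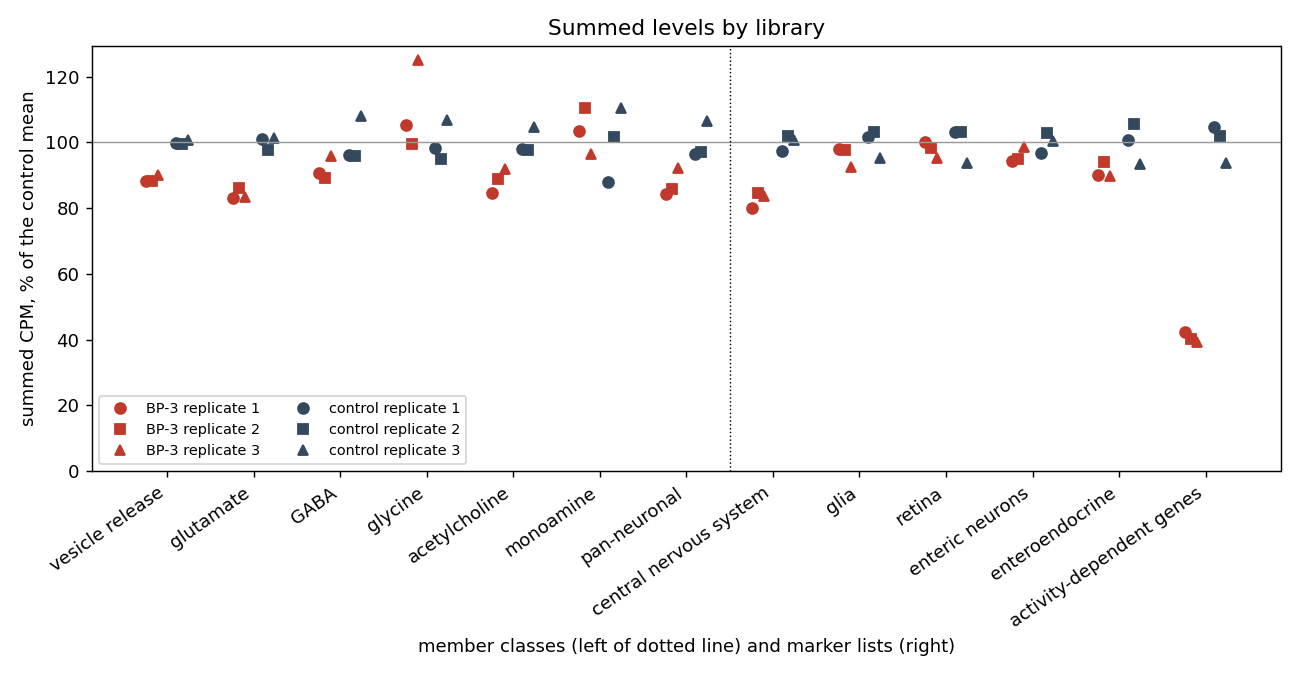
Summed CPM of the tested genes of each list in each library, as % of the mean of the 3 control libraries (y axis, from 0), BP-3 left of control in each list; member classes stand left of the dotted line and marker lists right of it. The BP-3 sums of the vesicle release, glutamate, GABA, acetylcholine and pan-neuronal members lie below all control sums. Those of the glycine and monoamine members overlap, and the activity-dependent genes lie lowest, at 39.1 to 42.2%. Further genes of these classes are not drawn. Most of the acetylcholine sum is ache, with means of 255 of 341 CPM in BP-3 and 298 of 386 CPM in control. For chata and slc18a3a the groups overlap. Most of the glutamate sum is grin1a and grin1b, which both fell.

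Of the 7 pan-neuronal genes 0 passed by edgeR's test, 3 passed by DESeq2 and 1 by limma, all lower. Of all rows 10.6% passed by edgeR's test, 12.7% by DESeq2 and 10.9% by limma, in either direction. An unadjusted p under 0.05 was found for 4 of the 7, against 26.1% of all rows. The RNA-binding protein gene elavl4 of maturing neurons lay at 181, 167 and 196 CPM in BP-3, against 219, 207 and 264 CPM in control, without overlap (log2 -0.35 ± 0.10 SE, edgeR adjusted p = 0.0549). Its relative elavl3, a general marker of neurons, lay at 186, 190 and 218 CPM in BP-3, against 206, 203 and 257 CPM in control, with overlap. The stathmin gene stmn1b, a regulator of microtubules, lay at 401, 436 and 438 CPM in BP-3, against 484, 492 and 505 CPM in control (log2 -0.21 ± 0.07 SE, edgeR adjusted p = 0.0752).

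The neuronal sodium pump genes differed in sign. The values of atp1a3a were 294, 285 and 313 CPM in BP-3, against 339, 351 and 366 CPM in control (edgeR adjusted p = 0.0541). Those of atp1a3b were 118, 123 and 127 CPM in BP-3, against 108, 105 and 111 CPM in control (edgeR adjusted p = 0.109). Neither gene's groups overlapped. The axon growth gene gap43 and the neurotrophin gene bdnf had log2 fold changes of -0.09 and -0.12, with overlap.

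Ratios of counts between related members do not depend on library scaling. The 14 ratios were formed with the values known and are given as descriptions. The ratio of syt2a to syt1a was 0.0307, 0.0271 and 0.0366 in BP-3 and 0.0172, 0.0132 and 0.0188 in control, 1.92 times as high in BP-3. That of atp1a3b to atp1a3a was 0.403, 0.430 and 0.406 in BP-3 and 0.320, 0.299 and 0.303 in control. That of gad1a to gad1b was 0.0250, 0.0234 and 0.0265 in BP-3 and 0.0144, 0.0164 and 0.0206 in control. In these 3 ratios the groups did not overlap. Of all 14, 6 did not overlap and 8 did, among them grin1a to grin1b, snap25a to snap25b and vamp1 to vamp2. Among single rows tested 31.0% did not overlap, and no such share was formed for ratios of other gene pairs. The ratios of syt2a and of syt1b to syt1a share a gene, so they are not separate results.

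**Figure D5:**
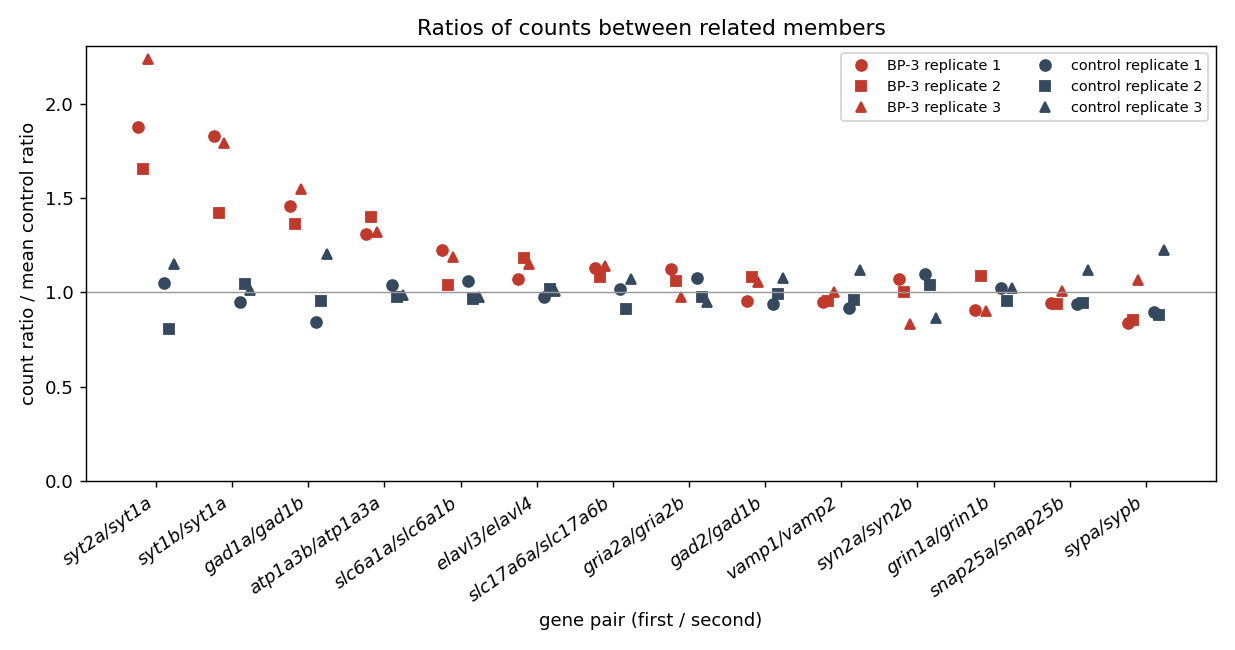
Ratio of raw counts of related members in each library, divided by the mean ratio of the 3 control libraries (y axis, from 0); gene pairs run along the x axis, BP-3 left of control, with symbols for replicates 1 to 3. The BP-3 points of syt2a/syt1a, syt1b/syt1a, gad1a/gad1b, atp1a3b/atp1a3a, elavl3/elavl4 and slc17a6a/slc17a6b lie above all control points. In the other pairs the groups overlap.

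Other genes of the same pathways, 218 tested beside the members, moved both ways: 18 fell (4.29% of all rows fell) and 9 rose (6.26% of all rows rose), with a median log2 fold change of -0.09. The class sums of further glutamate and pan-neuronal genes were lower without overlap, with BP-3 means at 90.7% and 90.5% of control. Those of further vesicle release, acetylcholine, GABA and glycine genes overlapped, with means at 94.5%, 91.2%, 104.3% and 106.9%. That of further monoamine genes was higher without overlap, at 109.8%. These sums were not tested. Among 49 further vesicle release genes 4 fell and 0 rose. They are the synaptotagmin-family genes syt12, syt4 and syt9a, with log2 fold changes of -0.66, -0.48 and -0.50, and amph, an amphiphysin gene of vesicle retrieval, with -0.27. The gene syt12 lay at 12.3, 12.4 and 12.4 CPM in BP-3, against 20.5, 19.3 and 19.0 CPM in control, the lowest adjusted p of this list (edgeR adjusted p = 0.000945).

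Of 38 further glutamate genes 5 fell and 5 rose (4.29% of all rows fell and 6.26% rose). The metabotropic receptor gene grm1a fell 1.48-fold, at 19.9, 21.3 and 19.9 CPM in BP-3, against 31.1, 30.2 and 29.2 CPM in control (edgeR adjusted p = 0.00127). The receptor scaffold gene homer1b fell 1.26-fold. The glutaminase genes glsa and glsb, whose enzymes make glutamate and also serve metabolism outside neurons, rose 1.44-fold and 1.48-fold. These 4 genes had the lowest adjusted p of this list. The other calls include receptor and scaffold genes that rose, an NMDA receptor subunit gene among them, and receptor and scaffold genes that fell. Among 54 further pan-neuronal genes 8 fell and 0 rose (4.29% of all rows fell and 6.26% rose). They include rbfox3a, a splicing factor gene of neurons, at 28.5, 29.6 and 31.3 CPM in BP-3, against 38.1, 37.8 and 40.3 CPM in control. The synaptic adhesion genes nlgn3a and nlgn2a fell 1.33-fold and 1.26-fold, and the stathmin-family gene stmn3 fell 1.25-fold.

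Of 26 further monoamine genes 3 rose and 1 fell (6.26% of all rows rose and 4.29% fell). The serotonin synthesis gene tph1b rose 1.66-fold, at 8.18, 6.53 and 7.84 CPM in BP-3, against 4.05, 5.14 and 4.42 CPM in control (edgeR adjusted p = 0.0122). It is also used by hormone cells of the gut, and which cells gave its reads was not tested. Of 10 enteroendocrine markers 0 passed by edgeR's test, DESeq2 or limma. An unadjusted p under 0.05 was found for 2 of these markers and for 26.1% of all rows. The vesicular monoamine transporter gene slc18a2 rose 1.65-fold and the monoamine oxidase gene mao 1.25-fold, whereas the histamine synthesis gene hdc fell 1.41-fold. The muscarinic receptor gene chrm2a was the 1 call among 19 further cholinergic genes, a rise at a low level, with 1.77, 1.38 and 2.61 CPM in BP-3, against 0.331, 0.875 and 0.454 CPM in control. Among 25 further GABA genes and 7 further glycine genes 0 passed by edgeR's test, DESeq2 or limma; 4 of the GABA genes and 0 of the glycine genes had an unadjusted p under 0.05, shares below the 26.1% of all rows.

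Markers of other tissues moved in part with the members. Over all rows tested, 4.29% fell and 6.26% rose. Of the 8 intestinal markers 2 rose and 0 fell, fabp6, a bile acid-binding protein gene, with a log2 fold change of 0.69 and cdh17, an intestinal cadherin gene, with 0.31. Of 12 central nervous system markers 2 fell and 0 rose, with summed levels of 341 to 361 CPM in BP-3, against 416 to 434 CPM in control. Those that fell are neurod1, a transcription factor gene of neurons that retina and endocrine cells also use, with a log2 fold change of -0.42, and tbr1b, a transcription factor gene of forebrain neurons, with -0.44. The mean of neurod1 was 130 of the summed 353 CPM in BP-3, and 175 of 427 CPM in control. Of 14 retina markers 1 fell, rcvrna, a recoverin gene of photoreceptors (log2 -0.30), and the sums overlapped, at 6304 to 6622 CPM in BP-3, against 6216 to 6835 CPM in control. Of 11 enteric neuron markers 0 passed by edgeR's test, DESeq2 or limma. An unadjusted p under 0.05 was found for 4, of which 2 had negative and 2 positive fold changes, against 26.1% of all rows, and the sums overlapped, at 181 to 189 CPM in BP-3, against 186 to 197 CPM in control. No tested marker could be at 0 in all libraries, since the filter on low counts removes such rows. The part of tissue makeup in the members' values was not tested.

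The number of members called depended on which libraries entered the fit. With both replicate 3 libraries left out, 15 members fell and 3 rose, where 7.47% of all rows fell and 9.18% rose. With a term that sets these libraries apart, 19 fell and 2 rose, where 10.7% of all rows fell and 12.7% rose. All 5 members called with every library were called in both settings. Gained in both were snap25a, vamp2, syn2a, sypa, gria2b, slc6a1b, ache, elavl4, stmn1b and atp1a3a, all lower, and atp1a3b, higher. Without BP-3 replicate 1, 0 members passed, where 5.34% of all rows did, and with that library as the only exposed one 0 passed, where 1.82% of all rows did. Without BP-3 replicate 2 only grin1a passed (edgeR adjusted p = 0.0286), where 4.67% of all rows did. Without control replicate 1 or control replicate 2, 0 passed, where 5.36% and 5.45% of all rows did. Without BP-3 replicate 3, 5 fell and 0 rose, where 9.48% of all rows passed, and syt2a (edgeR adjusted p = 0.0945) and grin1a (0.0872) were lost. Without control replicate 3, 4 fell and 1 rose, where 10.6% of all rows passed, and grin1a was lost (edgeR adjusted p = 0.0585). With 1 library left out the log2 fold change of syt1a ranged from -0.34 to -0.26, that of gria1a from -0.41 to -0.31 and that of grin1b from -0.28 to -0.27. That of grin1a ranged from -0.42 to -0.28 and that of syt2a from 0.49 to 0.75. The 5 called members kept their sign in all 17 alternative settings.

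The files do not state whether reads were counted by strand. In RefSeq's GRCz12tu annotation 13 of 46 members that it names overlap the span of a protein-coding gene, among them gria1a, grin1a, syt1a and syt2a, and whether reads of such neighbours were counted with these members was not tested. Paralogues with alike stretches may share reads, depending on how the authors counted.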

How the data were processed

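The 6 RNA libraries were read from both ends on an Illumina instrument, per the labels' protocols. For each library the authors deposited a table of gene names with raw counts, not normalized. The submitters' processing notes name the build mm9, a mouse build, while the row names are zebrafish symbols, so no coordinates are given; the aligner, counting tool, annotation and strand setting are unknown, being not given in the sources used here. Libraries were grouped by title. Rows were filtered with filterByExpr (23167 kept, 8886 removed), scaled with TMM and compared, BP-3 over control, by the quasi-likelihood test of edgeR 4.0.16 in R 4.3.3 without covariates. The threshold was an adjusted p of 0.05 (Benjamini-Hochberg, all 23167 rows). The SE was derived from the same fit, as the absolute log2 fold change divided by the square root of the test's F value. The 95% intervals were built from this SE with a t distribution. CPM are scaled by the TMM factors. Sums, medians and ratios were not tested.

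Members, classes, marker lists and further pathway genes (219 of 241 names found) were chosen with earlier results of these data known. A few further names (2) are not reported here and entered no count of members. By the rule for named genes every member may be named, and of other lists only called genes: at most 4 a pathway class and 2 a marker list, by adjusted p; genes named as examples of replicate 3 are members. For this comparison the procedure was tried on 3 sets of simulated counts for 23167 genes. Of genes given a 1.5-fold change 56.2% were called, for 2-fold 89.6% and for 4-fold 100%. Of the calls 10.4% were false. Smaller changes, such as most members had, were not simulated, so the share of them that would be called is unknown. Each set also had fewer changed genes than passed in the data. Replicates differed beyond counting noise in every pair. Deviations of same-numbered libraries from their group means correlated at 0.0859, 0.0643 and 0.225 over all rows and at 0.0972, 0.319 and 0.67 over the members. Not every value was over 0.1, so the numbers were not taken as pairs. Alternatives were other scaling, filters and tests (DESeq2 1.42.0, limma 3.58.1 with voom), a replicate block, a replicate 3 term, and libraries left out. Counts of PCR copies are not independent molecules. Figures were drawn with matplotlib 3.10.9.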

Additional observations from a re-analysis of the deposited data

How the results depend on the processing

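Across DESeq2 size factors, upper quartile factors, no filter and summed rows of repeated names, 5 members passed as in the report, and all 5 kept their direction in every setting. With limma 7 passed (6 lower, 1 higher; 10.9% of all rows passed). More passed with a filter of 1 CPM in 3 libraries (8, of which 7 lower; 12.2% of all rows), with DESeq2 (11, of which 10 lower; 12.7% of all rows), with the replicate 3 term (21: 19 lower, 2 higher) and with both replicate 3 libraries left out (18: 15 lower, 3 higher). BP-3 replicate 1 alone against the 3 controls, assumed to vary like them, gave 0 calls among members, lower or higher. Leaving out 1 library gave 0 to 5 members, 0 to 5 lower and 0 to 1 higher. Of further pathway genes 27 passed, against 63 with the replicate 3 term, 41 without both replicate 3 libraries, 2 with BP-3 replicate 1 alone, and 8 to 29 with 1 library left out. Over all rows 2446 passed, against 5421, 3894 and 435 in these 3 settings and 1084 to 2494 with 1 library left out.

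The replicate numbers did not meet the rule for pairs, and 3 of 6 libraries correlated best with their own number. With the replicate block 21 members (19 lower, 2 higher), 60 pathway genes and 5026 rows (21.7%) passed. Why these counts differ was not tested.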

Other observations

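Glial genes, which support and insulate neurons, moved both ways. Of 10 tested 4 fell and 1 rose, where 4.29% of all rows fell and 6.26% rose. The myelin gene mbpa lay at 57.5, 65.2 and 63.9 CPM in BP-3, against 79.2, 74.1 and 80.2 CPM in control (log2 -0.32 ± 0.08 SE, edgeR adjusted p = 0.0240). The radial glia gene fabp7a was higher, at 200.2, 190 and 190 CPM in BP-3, against 159, 157 and 131 CPM in control (log2 0.37 ± 0.09 SE, edgeR adjusted p = 0.0220). Of 23 neuropeptide genes tested 1 rose and 1 fell. The enkephalin precursor gene penkb rose 1.52-fold, at 12.0, 14.1 and 13.7 CPM in BP-3, against 9.67, 8.68 and 7.68 CPM in control (edgeR adjusted p = 0.0106). The somatostatin gene sst1.1 fell 1.28-fold, at 15.7, 15.3 and 17.8 CPM in BP-3, against 22.2, 20.0 and 20.1 CPM in control (edgeR adjusted p = 0.0351).

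Genes induced by activity or stimulation showed larger differences than the members did. Of 20 tested 12 fell and 0 rose, where 4.29% of all rows fell and 6.26% rose. Their summed levels were 258 to 278 CPM in BP-3, against 618 to 689 CPM in control. The list was written with these falls known, so its count is no independent support. The neuronal activity gene npas4a lay at 5.31, 5.16 and 5.35 CPM in BP-3, against 50.8, 48.2 and 42.3 CPM in control. The member bdnf, which neuronal activity also induces, lay at 13.0, 11.7 and 12.8 CPM in BP-3, against 13.4, 14.7 and 12.7 CPM in control, with overlap (95% interval of the log2 fold change -0.34 to 0.10).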
